A study of Mus musculus with 44 samples.

Results

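The genes described here encode the subunits of voltage-gated sodium channels and voltage-gated calcium channels of the mouse brain. Members were all genes of the deposited per-sample tables whose mouse symbol begins with Scn followed by a number and a or b, or with Cacna1, Cacna2d, Cacnb or Cacng, which gave 40 members of 17126 listed transcripts, chosen by name and without use of any measured value. Of these, 20 encode pore-forming subunits (10 sodium channel alpha subunits and 10 calcium channel alpha1 subunits) and 20 encode auxiliary subunits (4 Scn beta, 4 Cacna2d, 4 Cacnb and 8 Cacng genes).

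The study measured mRNA by RNA-seq, translation by ribosome-protected fragments (RPFs) and poly(A)-tail length by sequencing of mRNA 3′ ends in mouse brain tissue and in cultured cortical neurons. Tissue samples were the hippocampus of embryos at embryonic day 16, the hippocampus of an adult male mouse and the cortex of an adult male mouse. Cortical cultures came from newborn pups of both sexes, and each culture mixed several animals. Early in culture the cells were exposed for a limited time to 5 µM cytosine arabinoside, a poison of dividing cells, and the medium was then fully exchanged. Of the cultures, 6 came from 2 batches of 2 litters each, with no label saying which. Cultures at day 14 in vitro (DIV14) were untreated, stimulated for 30 min with brain-derived neurotrophic factor (BDNF), or stimulated for 30 min with glutamate and glycine (glu/gly). Cultures at DIV10 were untreated or depolarized with KCl for 10 min or 30 min. Further DIV14 cultures had been infected at DIV5 with a lentivirus in which the synapsin promoter, which is active in neurons, drove a green fluorescent protein (GFP) mRNA, alone or with the hairpin of miR-1 or miR-155 in its 3′ UTR. Visual cortex was taken from mice of 6–7 wk that had spent 1 wk in the dark, 4 of them still dark and 4 after 1 h of light. No genetic modification of the animals was given in the labels.

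Only the visual cortex had replicates, so every other comparison was between 1 library and 1 library, and intervals there are 95% Clopper-Pearson counting intervals that cover counting error only. With 1 library a group no test was possible, and a member is called higher or lower when it passed 2-fold between tissues or culture ages, or 1.5-fold after a stimulus or a microRNA, with at least 50 reads summed over the pair. Reads on listed genes per library ranged from 448022 to 7689624 for RNA-seq (12 libraries), from 2812215 to 23212489 for RPFs (10 libraries used), and from 389654 to 1057812 for the 3′-end tags of the cultures and adult cortex (TAIL-seq, 10 libraries), and the 8 visual cortex libraries (PAL-seq) held 1233538 to 4812273 tags. The hippocampal PAL-seq libraries were shallower, at 86841 tags in the embryo and 221876 in the adult. RNA of both hippocampi was poly(A)-selected, whereas RNA of the adult cortex and of 6 cultures, not named, was depleted of ribosomal RNA, so the hippocampi cannot be told apart from this step when they are set against other samples. In whole tissue and in mixed cultures, fewer cells of a type and less RNA per cell cannot be told apart.

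As background, the alpha subunit of a sodium channel forms the pore that opens on depolarization and carries the upstroke of the action potential, and single-span beta subunits tune its gating and its place in the membrane. The alpha1 subunit of a calcium channel forms the calcium pore, while Cacnb proteins in the cytoplasm and alpha2delta proteins outside the cell (Cacna2d genes) bring it to the membrane and shape its current. The gamma family (Cacng genes) was named for a muscle channel subunit, but several members in brain are transmembrane AMPA receptor regulatory proteins, which carry and tune glutamate receptors. Brain alpha subunits are known to switch during development, with Scn3a used early and Scn1a and Scn8a late.

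Levels differed widely among the members. Averaged over the 12 RNA-seq libraries, in counts per 1000000 reads on listed genes (CPM) per kb of counted coding sequence, Cacna2d1 was at 134, Scn3b at 132, Scn2b at 119 and Scn2a, the highest pore-forming member, at 106. Cacnb3, Cacna2d3, Cacng7, Cacng8, Cacnb4 and Cacng4 followed at 93.8, 86.5, 69.6, 68.9, 56.2 and 44.7, and the second pore-forming gene, Scn8a, at 41.9. The classes also differed in length, since counted coding sequence spanned 4996–6013 nt for sodium channel alpha genes and 5509–7057 nt for Cacna1 genes, against 598–637 nt for Scn beta genes and 622–1222 nt for Cacng genes, with a median of 1309 nt over all genes.

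At the other end, the sodium channels of skeletal muscle (Scn4a), peripheral sensory neurons (Scn9a, Scn10a, Scn11a) and the glial Scn7a, together with Cacna1s, Cacna2d4 and Cacng6, averaged at most 0.691 on the same scale. Cacng1, the gamma subunit of skeletal muscle, had at most 17 reads in any RNA-seq library. Cacna1f, a channel of the retina, was listed only through 3 visual cortex tags.

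Scn2b, which pairs covalently with alpha subunits, was at 3.48, 209 and 170.2 CPM per kb of RNA in embryonic hippocampus, adult hippocampus and adult cortex. In the DIV10 control and after 10 and 30 min of KCl its RNA was 35.1, 31.5 and 47.9. In DIV14 cultures, given here and further on in the order control, BDNF, glu/gly, GFP, miR-1 and miR-155, it was 141, 160.4, 128, 134, 192 and 177. The DIV10 and DIV14 ranges did not overlap, and of the DIV14 cultures only those with miR-1 and miR-155 reached the level of adult cortex. In RPFs it was at 1.58, 321 and 312 in the tissues, 25.8, 32.7 and 42.2 at DIV10, and 159.6, 180.5, 143 and 156 in the first 4 of the DIV14 cultures, where the adult tissues stood above all cultures.

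Scn3b, the beta subunit known from embryonic brain, varied little by comparison. Its RNA was at 85.5, 164 and 88.1 CPM per kb in the 3 tissues, 115, 126 and 142 at DIV10, and 161, 129, 142, 97.0, 155 and 177 at DIV14. In RPFs it was at 197, 444 and 136 in the tissues, 140.1, 169 and 201 at DIV10, and 200.5, 214, 199.8 and 188 at DIV14. The embryonic library of Scn3b was thus within the range of the cultures in RPFs.

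Scn2a, a main alpha subunit of excitatory neurons, was at 12.0, 102 and 219 CPM per kb of RNA in embryonic hippocampus, adult hippocampus and adult cortex, 50.5, 67.8 and 64.9 at DIV10, and 116, 127, 159, 121, 154 and 80.5 at DIV14. Its RPFs were at 7.75, 57.0 and 80.2 in the tissues, 32.6, 35.2 and 44.0 at DIV10, and 55.5, 76.7, 77.1 and 69.9 at DIV14. In both assays the order was embryo, DIV10 and then the DIV14 cultures with the adult tissues.

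Scn8a, the alpha subunit concentrated at the mature axon initial segment, was at 8.59, 134 and 144 CPM per kb of RNA in the tissues, but at 12.98, 15.7 and 17.8 at DIV10 and 19.4, 26.6, 44.3, 23.9, 31.4 and 23.6 at DIV14. Its RPFs were at 2.80, 64.0 and 78.9 in the tissues, 14.3, 10.8 and 10.6 at DIV10, and 32.8, 40.2, 46.8 and 43.4 at DIV14. Every culture lay below both adult tissues in both assays.

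Among calcium channel auxiliary genes, Cacna2d1, a binding partner of the drug gabapentin, was at 37.5, 55.6 and 172 CPM per kb of RNA in embryonic hippocampus, adult hippocampus and adult cortex, 96.5, 108 and 120.2 at DIV10, and 169, 171, 225, 155, 186 and 109 at DIV14. Cacna2d3, of the same family, was at 33.5, 71.7 and 91.4 in the tissues, 46.6, 47.9 and 57.9 at DIV10, and 121, 107, 129, 125, 106 and 100.9 at DIV14. For Cacna2d3 the 2 culture ages did not overlap, while for Cacna2d1 they did. RPFs of Cacna2d1 were at 69.9, 92.5 and 179 in the tissues, 149, 111 and 86.6 at DIV10, and 239.9, 262, 302 and 257 at DIV14.

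Cacnb3, a cytoplasmic beta subunit, was at 139.8, 182 and 119 CPM per kb of RNA in the tissues, 52.6, 65.7 and 60.3 at DIV10, and 92.3, 86.1, 68.6, 76.3, 79.4 and 104 at DIV14, with all cultures below all tissues. Cacnb4, whose loss causes ataxia in mice, was at 9.57, 45.2 and 179.5 in the tissues, 24.5, 35.7 and 33.6 at DIV10, and 51.6, 48.6, 69.1, 58.6, 73.0 and 45.2 at DIV14, so that adult cortex stood above every other library. RPFs of Cacnb4 were at 2.98, 49.8 and 108 in the tissues, 17.3, 14.8 and 16.7 at DIV10, and 46.4, 47.1, 50.3 and 55.6 at DIV14.

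Of the AMPA receptor regulatory proteins, Cacng8 (gamma-8), the main form in hippocampus, was at 20.6, 244 and 87.1 CPM per kb of RNA in the tissues, 37.1, 47.8 and 33.6 at DIV10, and 77.2, 58.0, 80.3, 53.0, 40.6 and 48.5 at DIV14, highest in adult hippocampus. Its RPFs were at 25.8, 315 and 127 in the tissues, 39.1, 38.3 and 38.1 at DIV10, and 139, 137, 164 and 125 at DIV14. Cacng7 was at 106, 136 and 74.5 in RNA of the tissues, 54.0, 50.8 and 52.8 at DIV10, and 88.4, 56.3, 42.7, 60.2, 46.4 and 67.6 at DIV14.

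Cacng4 ran the other way, at 150.1 CPM per kb of RNA in embryonic hippocampus, 24.7 in adult hippocampus, 22.6 in adult cortex, 44.9, 70.6 and 24.0 at DIV10, and 29.5, 31.3, 39.2, 45.4, 19.9 and 34.0 at DIV14. Its RPFs were at 65.8, 7.91 and 10.7 in the tissues, 43.3, 22.9 and 27.0 at DIV10, and 37.8, 34.2, 34.3 and 39.9 at DIV14. The embryonic library was the highest in both assays, and the adult tissues were below every culture in RPFs.

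The comparison of adult with embryonic hippocampus asks how channel mRNA and its translation differ between the fetal and the mature tissue. Of 30 members with enough RNA-seq reads, 16 were more than 2-fold higher in the adult and 3 were more than 2-fold lower, beside 20.9% of all 11843 genes higher and 26.6% lower. The median log2 difference was 1.15 over these members, −0.26 over all genes and −0.43 over genes with at least 5000 nt of counted coding sequence. In RPFs, 20 of 30 members were higher and 2 lower, beside 29.2% and 33.3% of all 12304 genes, with medians of 1.85 and −0.20. PAL-seq tags of the same tissues were few, with 3 members past the minimum, of which 2 were higher, among them Scn2a (2 and 65 tags), beside 29.8% of genes. Scn2a passed the summed minimum only through its adult tags, and the embryonic library was the shallower. These tags are therefore no separate support for higher levels in the adult. The RPF counts include 4 genes (Cacnb2, Cacng5, Scn4b and Scn7a) with no entry in the embryonic RPF library, and without these 16 of 26 were higher, 2 were lower and the median was 1.33. Of 8870 genes with at least 100 RNA-seq reads in embryonic hippocampus, 68 had no RPF entry there. In adult hippocampus it was 20 of 8452 and in adult cortex 0 of 3936. Whether a missing entry means that no RPF was found was not tested. By class, 6 of 13 pore-forming and 10 of 17 auxiliary members were higher in RNA, and 9 of 13 and 11 of 17 were higher in RPFs.

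The 3 lower in RNA were Cacng4, Cacna2d2 and the sensory neuron gene Scn9a, the last with 34 and 16 reads.

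Several sodium channel genes differed by more than 10-fold in RNA. Scn2b had 16 RNA-seq reads in embryonic and 909 in adult hippocampus, a 60.01-fold difference in CPM (interval 36.7–105), with RPFs of 22 and 4164, or 203-fold (134–324). Scn4b, a beta subunit tied to resurgent current in fast-spiking cells, had 0 reads in the embryonic and 122 in the adult library, at least 43.0-fold higher when 3 reads are taken as the floor of the embryonic library, and 223 RPFs in the adult. Both had at most 16 reads in the embryonic library, while Scn3b differed by 1.92-fold in RNA (1.69–2.18) and 2.255-fold in RPFs (2.15–2.36).

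Among alpha subunits, Scn1a, the main channel of fast-spiking inhibitory neurons, had 44 and 1076 RNA-seq reads, 25.8-fold higher in the adult (19.1–35.8). Its RPFs numbered 2 in the embryonic and 982 in the adult library, a ratio of 526 whose counting interval, 145–4351, is wide because of the 2 reads. Scn8a was 15.6-fold higher in RNA (14.1–17.4) and 22.8-fold in RPFs (20.6–25.4), and Scn2a was 8.51-fold (7.78–9.31) and 7.35-fold (6.90–7.85) higher. Scn3a, the early alpha subunit, was the exception in RNA, at 0.897 of its embryonic level (0.798–1.007), and its RPFs were 1.78-fold higher (1.63–1.94).

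The makeup of the alpha subunit RNA therefore differed between the ages. Shares were taken of the summed level per length of Scn1a, Scn2a, Scn3a and Scn8a, without the other alpha genes. In embryonic hippocampus Scn3a held 39.9% of this sum, Scn2a 33.5%, Scn8a 24.0% and Scn1a 2.69%. In adult hippocampus Scn8a held 49.0%, Scn2a 37.2%, Scn1a 9.08% and Scn3a 4.68%, and in adult cortex the shares were 31.0% for Scn8a, 47.0% for Scn2a, 17.8% for Scn1a and 4.27% for Scn3a. In RPFs of adult hippocampus Scn8a and Scn2a again led, with 46.0% and 41.0%, but Scn3a at 7.46% stood above Scn1a at 5.49%. In the embryo Scn2a led with 47.3% of the RPFs of these genes, ahead of Scn3a with 35.6% and Scn8a with 17.1%. In RNA the DIV14 control culture resembled neither age, with Scn2a at 64.7%, Scn3a at 15.8%, Scn8a at 10.8% and Scn1a at 8.70%, the Scn8a share resting on 58 reads. In RPFs of this culture Scn2a and Scn8a led, as in adult hippocampus. They had 1438 and 837 RPFs, against 321 for Scn3a and 149 for Scn1a.

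The calcium channel pores differed in size and direction, also within 1 channel type. Genes of the P/Q-type (Cacna1a) and R-type (Cacna1e) channels, which trigger transmitter release and dendritic calcium entry, were 4.65-fold (4.24–5.09) and 3.77-fold (3.55–4.00) higher in adult RNA, and 4.01-fold and 9.38-fold higher in RPFs. The T-type gene Cacna1i was 4.70-fold and 2.07-fold higher. Of the other T-type genes, Cacna1g was at 0.679 of its embryonic RNA level and 0.654 of its RPF level, and Cacna1h at 1.02 and 1.16. The N-type gene Cacna1b and the L-type gene Cacna1c were within 2-fold in RNA (1.37 and 1.26) and past it in RPFs (2.38 and 2.66), while the L-type gene Cacna1d was within 2-fold in both (1.71 and 1.23).

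Auxiliary calcium channel genes were also mixed. Of the 4 Cacnb genes, Cacnb1, Cacnb2 and Cacnb4 were 2.86-fold, 9.25-fold and 4.72-fold higher in adult RNA and Cacnb3 had a ratio of 1.30, and Cacnb4 was 16.7-fold higher in RPFs (13.6–20.8). Cacna2d2 was at 0.387 of its embryonic RNA level (0.335–0.447) and 0.533 of its RPF level, against 2.14-fold higher RNA for Cacna2d3 and 1.48-fold for Cacna2d1.

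Of the AMPA receptor regulatory proteins, Cacng3 (gamma-3) and Cacng8 were each 11.8-fold higher in adult RNA, with RPF ratios of 51.1 and 12.2, and Cacng2 (stargazin) was 2.29-fold higher in RNA and 3.22-fold in RPFs. Cacng4 was at 0.165 of its embryonic RNA level (0.139–0.194) and 0.120 of its RPF level (0.101–0.142). Within 1 family, then, members differed between the ages in opposite directions. Cacng7 was discordant between the assays, with 634 and 770 RNA-seq reads, a ratio of 1.28, but 604 and 31 RPFs, a ratio of 0.0550 (0.0370–0.0789).

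The levels of the other members past 2-fold in both hippocampal assays are given for RNA in the same order of libraries as above. Scn1a was at 0.962, 24.9 and 82.7 CPM per kb in embryonic hippocampus, adult hippocampus and adult cortex, 10.3, 14.3 and 14.4 at DIV10, and 15.5, 16.1, 19.6, 29.3, 31.4 and 16.9 at DIV14. Scn4b was at 0, 26.3 and 77.2 in the tissues, 1.32, 2.96 and 5.86 at DIV10, and 18.5, 9.82, 15.7, 17.5, 25.9 and 14.9 at DIV14. Both genes were lowest in the embryo and highest in adult cortex.

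Among pores, Cacna1a was at 10.6, 49.4 and 49.2 CPM per kb in the tissues, 14.4, 12.3 and 10.8 at DIV10, and 7.52, 10.0, 18.4, 6.96, 8.48 and 8.05 at DIV14. Cacna1e was at 26.8, 100.8 and 102 in the tissues, 15.9, 15.02 and 19.1 at DIV10, and 22.1, 25.9, 58.2, 25.4, 25.6 and 21.3 at DIV14. Cacna1i was at 5.48, 25.8 and 34.8 in the tissues, 11.15, 8.05 and 8.56 at DIV10, and 6.30, 9.55, 13.7, 4.43, 6.62 and 8.32 at DIV14. In these 3 genes both adult tissues exceeded every culture in RNA, but not in RPFs. In deposited RPM of RPFs, Cacna1a was at 77.0 in adult hippocampus, 80.3 in adult cortex and 95.2 in the DIV14 control. Cacna1e was at 360 and 275 in these tissues, 269 in that control and 364 with glu/gly. Cacna1i was at 38.9 and 95.5 in these tissues and 62.0 with glu/gly.

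Among auxiliary genes, Cacng3 was at 5.50, 64.9 and 74.9 CPM per kb in the tissues and 8.76–22.2 in the cultures, and Cacng2 at 15.1, 34.6 and 23.5 in the tissues and 2.04–16.2 in the cultures. Cacnb1 was at 32.7, 93.5 and 71.0 in the tissues and 23.2–41.8 in the cultures, and Cacnb2 at 4.47, 41.4 and 26.8 in the tissues and 8.75–27.9 in the cultures. In RNA the adult tissues exceeded every culture for Cacng3, Cacng2 and Cacnb1, and for Cacnb2 the GFP culture reached adult cortex.

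Cell type markers moved with these comparisons. Neuron markers summed to 2860 CPM in embryonic and 3300 in adult hippocampus, glutamatergic markers to 268 and 5144, GABAergic markers to 67.1 and 894, oligodendrocyte markers to 14.4 and 1232, and neural progenitor markers to 2419 and 52.2. Their part in the differences of the channel genes was not tested.

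Between the adult cortex and the adult hippocampus, 6 of 29 members were more than 2-fold higher in cortical RNA and 2 lower, beside 8.99% and 9.7% of all 10675 genes, and in RPFs 6 of 30 were higher and 4 lower, beside 16.4% and 12.4%. Scn1a was 3.33-fold higher in cortical RNA and 3.48-fold in RPFs, Scn4b 2.93-fold and 8.32-fold, and Cacnb4 3.98-fold and 2.17-fold. These 3 genes passed 2-fold in both assays, as did, in the other direction, Cacng8 at 0.358 and 0.403 and the T-type gene Cacna1h at 0.338 and 0.495. Cacna2d1 and Scn2a passed it in RNA only, at 3.10 and 2.15 with RPF ratios of 1.94 and 1.41. These 2 tissues differed in RNA selection as well as in region.

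The adult cortex set against the untreated DIV14 culture shows how the channel genes stand in cultured neurons. In RNA-seq, 14 of 27 members were more than 2-fold higher in the cortex and 0 were lower, beside 17.5% and 17% of 7335 genes. Of the 12 pore-forming members with enough reads, 10 were higher, including all 8 Cacna1 genes, against 4 of 15 auxiliary members, with class medians of 1.75 and 0.28 on the log2 scale. Long genes moved with this result, since 217 of 453 genes with at least 5000 nt of coding sequence were higher in the cortex, with a median of 0.94 against −0.18 over all genes. The part of length in the pore-forming result was not tested.

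The other assays of the same pair gave smaller differences. In RPFs, 6 of 30 members were higher and 1 lower, beside 10.7% and 10.2% of 11087 genes, with 0 of 8 Cacna1 genes higher and a Cacna1 median of −0.09. In TAIL-seq tags, which count 3′ ends and do not scale with length, 6 of 18 members were higher and 0 lower, beside 9.44% and 8.88% of 5934 genes, with 0 of 3 Cacna1 genes higher. For Cacna1a the cortex-to-culture ratio was 6.55 in RNA, 0.781 in RPFs and 1.07 in tags, for Cacna1b 2.44, 0.538 and 1.09, and for Cacna1c 3.03, 0.832 and 0.956. The RNA difference of these calcium channel pores was thus not seen in the other assays.

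Other genes were higher in the cortex by all 3 measures. Scn1a was 5.33-fold higher in RNA, 4.59-fold in RPFs and 5.32-fold in tags, and Scn8a 7.46-fold, 2.41-fold and 3.23-fold. Cacnb4 was 3.48-fold, 2.33-fold and 2.93-fold higher. Scn3a and Scn3b, the subunits known from embryonic brain, had ratios below 1 in all 3 assays, at 0.707, 0.544 and 0.727 for Scn3a and 0.547, 0.676 and 0.697 for Scn3b, none of them past 2-fold.

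Neuron markers summed to 3656 CPM in the cortex and 3035 in this culture, glutamatergic markers to 2439 and 279, GABAergic markers to 704 and 940, and oligodendrocyte markers to 1603 and 5.90, with 4 of 5 oligodendrocyte markers at 0 in the culture. Their part in the differences was not tested. Against the GFP culture 13 of 27 members were higher and 2 lower in RNA (all genes 17.5% and 15.4%), 5 and 4 of 30 in RPFs (12.5% and 8.43%), and 7 and 0 of 16 in tags (11.6% and 6.89%).

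**Figure D1:**
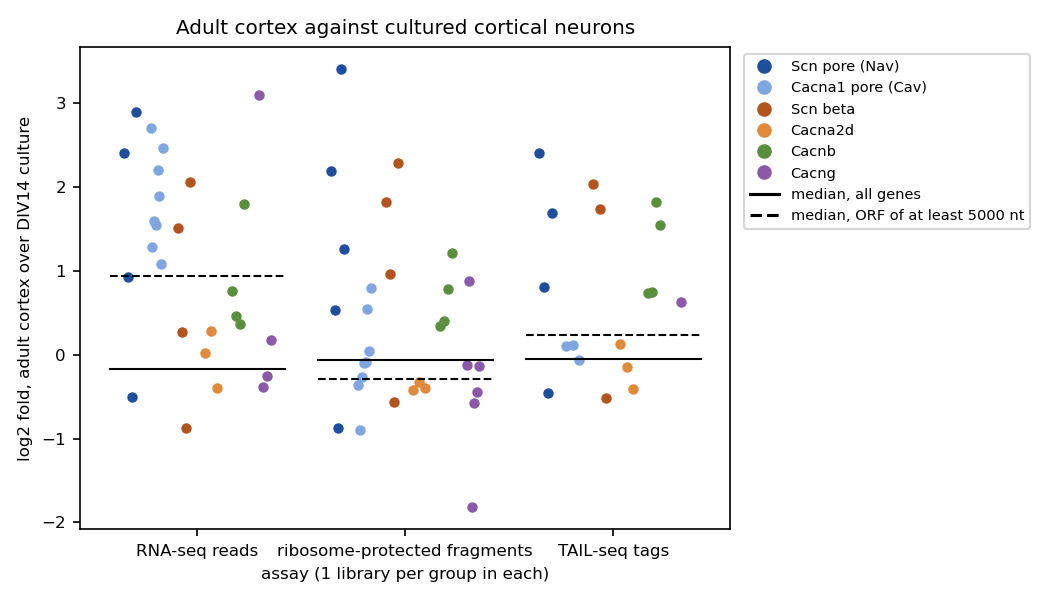
Log2 ratio of adult cortex to the untreated DIV14 culture for each channel gene (points) in RNA-seq, RPFs and TAIL-seq tags, by class, with the median of all genes (solid line) and of genes with at least 5000 nt of coding sequence (dashed line). Cacna1 genes lie above 2-fold in RNA and near 0 in RPFs.

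The untreated cultures at DIV14 and DIV10 were separate preparations, so age and preparation cannot be told apart. More members were higher at DIV14 than lower in each assay, with 5 of 23 higher and 0 lower in RNA (all genes 2.09% and 4.87%), 12 of 30 and 0 in RPFs (4.02% and 7.85%), and 8 of 15 and 0 in tags (4.11% and 3.79%). Scn2b was 4.03-fold higher in RNA, 6.20-fold in RPFs and 3.13-fold in tags, and Cacna2d3 2.59-fold, 2.60-fold and 3.03-fold. Cacnb4 had ratios of 2.11, 2.68 and 2.41, and Scn2a 2.29, 1.70 and 2.23. Scn4b had 10 RPFs at DIV10 and 76 at DIV14, a ratio of 16.6. Median log2 differences over members were 0.58, 0.85 and 1.12 in RNA, RPFs and tags, against −0.03, −0.08 and −0.02 over all genes.

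Translational efficiency (TE), the RPF level of a gene divided by its RNA level, was taken on the log2 scale relative to the median gene of its library, for genes with at least 10 RPM of RNA. Pore-forming members were below the median gene in all 3 tissues, with class medians of −1.48 in embryonic hippocampus, −1.01 in adult hippocampus and −1.12 in adult cortex. In the DIV10 control, KCl 10 min and KCl 30 min cultures their medians were 0.15, −0.05 and −0.07, and in the DIV14 control, BDNF, glu/gly and GFP cultures 1.15, 0.90, 0.51 and 1.39. The DIV14 cultures therefore lay above and the tissues below the median gene. Genes with at least 5000 nt of coding sequence had medians of −0.77, −0.99 and −0.95 in the tissues, 0.30, 0.13 and 0.24 in the DIV10 cultures and 0.27, 0.30, 0.03 and 0.30 in the DIV14 cultures, in the same orders. They stood above the pore-forming medians in the DIV10 cultures, below them in the DIV14 cultures and close to them in adult hippocampus, and their part in the result was not tested. The culture values turned on the RNA cutoff, since at 30 RPM only 3 pore-forming members were left in the DIV14 control and 4 in the GFP culture, with medians of −0.63 and −0.65.

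The 2 pore families differed within the cultures. Cacna1 class medians were 0.32–1.66 there against −1.62, −1.33 and −0.88 in embryonic hippocampus, adult hippocampus and adult cortex, while sodium channel alpha medians were below the median gene in every culture, at −0.81 to −0.38. Before the library median was taken off, Cacna1e had a log2 TE of 3.06 in the DIV14 control culture, 2.56 in the DIV10 control, 0.72 in adult cortex, 0.51 in adult hippocampus and −1.08 in embryonic hippocampus. Scn8a had 2.41 and 1.72 in those cultures and 0.72, −0.01 and −0.83 in those tissues. Both genes thus had their lowest TE in the embryonic hippocampus.

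Auxiliary subunits had medians above the median gene in all 3 tissues, unlike the pore-forming members, with class medians of 0.29, 0.15 and 0.40 in embryonic hippocampus, adult hippocampus and adult cortex, 0.34, −0.19 and −0.50 in the DIV10 control, KCl 10 min and KCl 30 min cultures, and 0.60–0.75 in the 4 DIV14 cultures. At 30 RPM the embryonic and adult cortex values turned to −0.38 and −0.061. The median counted coding sequence of the auxiliary members was 928 nt. All genes with under 1000 nt had TE medians of 0.38, 0.49 and 0.71 in embryonic hippocampus, adult hippocampus and adult cortex, above the auxiliary medians. In the cultures these short genes had medians of −0.04 to 0.15, and the part of length in the auxiliary result was not tested. Scn3b was above the median gene in 10 of 10 libraries (log2 TE 1.66–2.75). Cacna2d1 was above in 10 of 10, Scn3a in 0 of 10 and Scn1a in 0 of 9.

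From the DIV14 control culture to adult cortex, TE was lower by more than 2-fold for 5 of 8 pore-forming members, beside 12.4% of all genes and 199 of 329 genes with long coding sequence, and for 0 of 11 auxiliary members. The 5 were Cacna1a, Cacna1e, Cacna1b, Cacna1c and Scn8a, with log2 differences of −3.12, −2.34, −2.23, −1.92 and −1.69. The medians were −1.80 for pore-forming, −0.25 for auxiliary and −1.17 for long genes. Cacng7 had a log2 TE of −5.15 in adult hippocampus from 770 reads and 31 RPFs, against −0.88 in embryonic hippocampus, 0.60 in adult cortex and 0.84 in the DIV14 control, which placed it at the 0.300 percentile of the adult hippocampal library.

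The members' median poly(A) tail was longer than the library median in each culture, adult cortex and visual cortex library. Members with at least 50 tags were above the library median in 76 of 89 TAIL-seq values and in 134 of 153 values of the 8 visual cortex mice. These values count the same genes again in each library and are not independent. The members' median exceeded the library median by 13.7–24.5 nt in the 9 cultures, by 4.82 nt in adult cortex and by 6.17–9.81 nt in the 8 mice. It rested on 4–15 members in a culture, 12 in adult cortex and 16–23 in a mouse. Median tails of pore-forming and auxiliary members were 126.5 nt and 125.9 nt in the DIV14 control culture (6 and 9 members) and 104.0 nt and 104.6 nt in adult cortex (3 and 9 members).

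Cacna1a had a mean tail of 122.9 nt in adult cortex and 126.0–154.1 nt in the cultures where it passed 50 tags. It was above the library median in every library where it was measured. Cacna2d3 was mostly below the library median, with 97.6 nt in adult cortex, 96.0–101.3 nt in cultures and 77.3–91.0 nt in visual cortex. It was above the median in 0 of 4 TAIL-seq libraries and 3 of 8 mice. Scn1a was also above in only 3 of 8 mice (70.9–93.7 nt). Cacng3 and Cacnb1 were above in 4 of 7 and 2 of 4 TAIL-seq libraries, but in 8 of 8 and 7 of 8 mice. Tail values of the 2 hippocampal libraries were multiples of 0.5 nt and are not compared with the others.

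Several members had many RNA-seq reads but few 3′-end tags, so their tails could not be measured. In adult cortex, Cacna1e had 1179 reads and 9 tags, Cacng8 182 reads and 0 tags, and Cacng7 99 reads and 0 tags. In visual cortex, Cacng4, Cacng7 and Cacng8 had 0 tags in all 8 mice and Cacna1e had 2 tags in all 8 mice together. A polyadenylation signal (AATAAA or ATTAAA) was present in the last 50 nt of the annotated 3′ UTR in 82.5% of 40 members and 80.2% of 16586 genes, and this window held neither in Cacna1e and Cacng8. It held a signal in Cacng7 and Cacng4, which had no visual cortex tags, and held none in Cacnb1, which had 76 tags in adult cortex. The part of the signal in the tag numbers was not tested.

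Stimulation was compared with the untreated culture of the same day. The BDNF and glu/gly libraries share 1 control, as do both KCl libraries, so their values are given side by side. Fos, an immediate early gene used as a check of stimulation, was at 13.8 CPM in the DIV14 control, 463 with BDNF and 296 with glu/gly, and at 13.4 in the DIV10 control, 43.3 after 10 min and 245 after 30 min of KCl.

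With BDNF, 1 of 19 members was more than 1.5-fold higher in RNA and 1 lower, beside 3.66% and 4.96% of all genes. These were Cacna1i at 1.52 and Cacng7 at 0.637. In RPFs 0 of 29 were called in either direction (all genes 1.73% and 7.01%), and in tags only Cacnb3 passed, at 1.52 (2.69% and 4.6%).

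With glu/gly, 7 of 21 members were higher and 1 lower in RNA, beside 7.76% and 6.77% of 5229 genes, and all 7 were pore-forming. They were Cacna1e at 2.64 (interval 2.03–3.46), Cacna1a at 2.44 (1.56–3.94), Scn8a at 2.29 (1.68–3.15), Cacna1i at 2.17, Cacna1c at 2.11, Cacna1b at 1.96 and Cacna1g at 1.83. Their values in the other assays were smaller. In RPFs only Cacna1e at 1.54 and Cacna1h at 1.64 were higher and Cacnb2 at 0.547 was lower (2 and 1 of 29 members, all genes 2.52% and 7.28%). In tags, Cacna1a was at 1.20, Cacna1b at 1.21, Scn8a at 1.17 and Cacna1c at 0.848, and only Cacnb2 passed, at 1.64 (2.81% and 3.95%). Long genes were higher in the same RNA pair, with 106 of 365 past 1.5-fold and a median of 0.41, and their part in the pore-forming result was not tested.

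After 10 min of KCl, 2 of 22 members were higher in RNA and 0 lower (all genes 3.83% and 5.05%), namely Cacna1d at 1.69 and Cacng4 at 1.57. In RPFs 0 of 29 were higher and 6 lower (4.32% and 14.4%), and after 30 min 2 were higher and 7 lower (5.5% and 14.4%). Cacng7, Cacng2 and Cacng4 passed in both KCl libraries, with RPF ratios of 0.418 and 0.358, 0.469 and 0.534, and 0.529 and 0.625.

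In the opposite direction, Scn3a and Scn2b RPFs were 1.91-fold and 1.64-fold higher after 30 min. In tags after 30 min, 4 members were higher and 0 lower (6.8% and 5.23%), which were Scn3a at 1.91, Cacna2d1 at 1.77, Scn2a at 1.76 and Cacna2d3 at 1.56. After 10 min, 1 of 9 members passed in tags, Cacna2d1 at 1.96 with 97 tags in the control and 181 after KCl (5.03% higher and 4.14% lower over all genes). The RNA library of 30 min had Cacng4 alone past 1.5-fold, at 0.534 (9.42% and 14.5%).

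Expression of a microRNA in neurons addresses how its targets respond. miR-155-5p pairs through its seed, bases 2 to 8, with sites in 3′ UTRs. Its mature sequence is shown because its seed defines the sites searched, with the seed in capitals (RefSeq, GRCm38.p6, chr16:84714143-84714165, plus strand).
miR-155-5p: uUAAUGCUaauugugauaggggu
Sites were matched on the sense strand of RefSeq 3′ UTRs as AGCATTAA (8mer), AGCATTA not followed by A (7mer-m8) or GCATTAA not preceded by A (7mer-A1), each UTR being classed by its best site. Of 40 members, 7 held a site (17.5%), against 11.8% of 16888 genes. The median 3′ UTR was 2117.5 nt long for pore-forming and 1679 nt for auxiliary members, against 915 nt over all genes. The part of UTR length in the share with a site was not tested. The sites of the 5 members with enough reads in these cultures are shown (Scn7a and Scn9a hold the others) with 11 bases on either side and the matched bases in capitals, all in 3′ UTR exons of GRCm38.p6.
Scn2a (8mer, chr2:65765177-65765206, plus strand): tgacacttgatAGCATTAActgtcaccacc
Scn1a (7mer-m8, chr2:66271395-66271423, minus strand): ttttacttttcAGCATTAtgtacatatga
Cacna2d1 (7mer-m8, chr5:16372141-16372169, plus strand): tcttggtgaaaAGCATTAgtgtagtagac
Cacna2d1 (7mer-m8, chr5:16373444-16373472, plus strand): tttgaacaaccAGCATTActgccaaacac
Cacna2d1 (7mer-m8, chr5:16373588-16373616, plus strand): ctaatgcttgaAGCATTAttgcttacctt
Cacnb4 (7mer-m8, chr2:52432346-52432374, minus strand): ttttctgcagtAGCATTAgcaatttggtc
Cacna1c (8mer, chr6:118592579-118592608, minus strand): tgagttgtgtcAGCATTAAaattctatttt

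In the miR-155 culture, 3 of 25 members were more than 1.5-fold lower in RNA than in the GFP culture and 3 were higher, beside 6.74% and 8.62% of 7726 genes. The lower genes were Scn1a at 0.577 (interval 0.443–0.758), Cacnb2 at 0.610 (0.379–1.02) and Scn2a at 0.665 (0.586–0.756), and the higher were Cacna1i at 1.88, Scn3b at 1.82 and Cacna1b at 1.75. Of the lower genes, Scn1a and Scn2a carry the sites shown. The other members with sites were at 0.699 for Cacna2d1, 0.772 for Cacnb4 and 1.02 for Cacna1c, so 4 of 5 were below 1. In tags, where 1 of 14 members was lower and 0 higher (5.7% and 5.2% of all genes), the lower gene was Cacna2d2, which holds no site, at 0.658 (interval 0.393–1.09) from 37 tags in the GFP culture and 30 in the miR-155 culture. Of the members with sites, none of which passed 1.5-fold in tags, Scn2a was at 0.736, Cacnb4 at 0.748 and Cacna2d1 at 0.796.

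For comparison over all genes of the same pair, the median log2 RNA difference was −0.27 for 261 genes with an 8mer, −0.19 for 482 with a 7mer-m8, −0.14 for 354 with a 7mer-A1 and 0.04 for 6592 with none. The 3 members with a 7mer-m8 had a median of −0.52 (−0.79 to −0.37), the 2 with an 8mer were at −0.59 and 0.03, and 20 members with no site had a median of 0.02. In the miR-1 culture, 1 of 20 members was higher and 0 lower in RNA (7.3% and 7.56%), which was Scn3b at 1.60. In miR-1 tags Scn8a was higher at 1.71 and Cacna2d2 lower at 0.377, from 37 and 16 tags (6.99% and 6.69%).

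Light after dark rearing was the only comparison with replicates, 4 mice in each group. Levels are tag counts as CPM, tested by edgeR's quasi-likelihood test with Benjamini-Hochberg adjustment over 9554 genes. Of 40 members, 23 had enough tags to be tested and 17 did not, and of the 23, 0 passed an adjusted p of 0.05, beside 1.21% of all genes higher and 0.126% lower. At an unadjusted p under 0.05 there were 3 members, beside 9.45% of all genes, and DESeq2 also called 0 with 3 at that unadjusted level. Fos, a check of the stimulus, was at 8.21–152 CPM in the dark mice and 470–990 in the light mice, with no overlap. Neuron markers summed to 7598–8846 CPM over the 8 mice, and oligodendrocyte markers to 636–1060 in the dark and 418–787 in the light, whose part in the values below was not tested.

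Of the members under that unadjusted level, Cacnb3 and Cacna2d3 are given by mouse. Cacnb3 had 166.9, 140.3, 149.9 and 188.4 CPM in the dark and 184.8, 208.8, 213.9 and 152.7 in the light, a log2 difference of 0.28 (edgeR adjusted p = 0.456), and Cacna2d3 had 43.8, 64.6, 39.8 and 45.1 in the dark and 55.9, 56.2, 81.0 and 64.2 in the light, a log2 difference of 0.39 (edgeR adjusted p = 0.456). The groups overlapped for both genes.

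Scn2a, the alpha subunit with the most tags, had 428.8–516.0 CPM in the dark mice and 440.2–538.9 in the light mice. No member separated the groups, beside 5.76% of all genes that did. Approximate 95% intervals of the fold difference, taken with a normal quantile, lay between 0.672 and 1.98 over all 23 members. The quantile of the test itself is wider, and Cacna1h reached the upper bound of 1.98, so a 2-fold change was not excluded for that gene. The log2 difference had a median of 0.05 over the members and −0.005 over all genes, and 17 of 23 were above 0.

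Tail lengths in the same mice were tested by limma for genes with at least 50 tags in each mouse. None of 15 members passed (0 of 15, beside 0.231% of 4321 genes longer and 0% shorter), and 0 had an unadjusted p under 0.05, beside 3.93% of all genes. The standard error from limma was the same for all 15 members, 6.68 nt, so these tests do not reflect the spread of each gene. Cacna1a had mean tails of 118.6, 105.5, 86.9 and 101.5 nt in the dark and 94.3, 123.7, 127.2 and 99.6 nt in the light, with overlap. The median difference was 5.70 nt over the members and 3.75 nt over all genes, and 13 of 15 members were longer in the light, beside 84.3% of all genes. Library median tails ranged from 77.5 to 97.5 nt over the 8 mice.

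**Figure D2:**
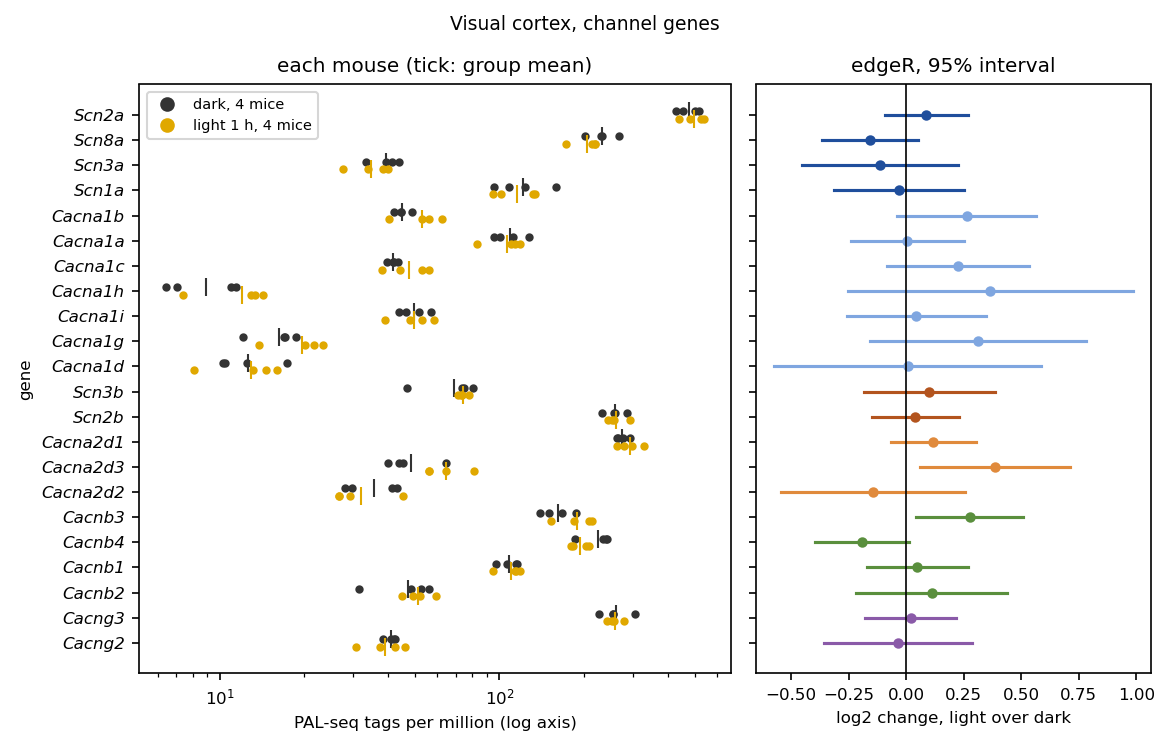
CPM in each of 8 visual cortex mice (left, log axis) and the edgeR log2 difference of light against dark with its approximate 95% interval, taken with a normal quantile (right), for channel genes. Dark and light mice overlap for every gene, and the intervals lie between fold differences of 0.672 and 1.98.

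Genes whose products bind or place these channels were taken as further lists. For adult against embryonic hippocampus their RNA counts stand beside 20.9% of all genes higher and 26.6% lower, and their RPF counts beside 29.2% and 33.3%. In the axon initial segment list, Sptbn4, a spectrin of the initial segment, was 4.04-fold higher in adult than in embryonic hippocampal RNA and Nrcam 2.89-fold, and Ank3, which anchors sodium channels there, was at 0.751 (2 of 5 higher, also in RPFs). The FGF homologous factors, which bind the tails of sodium channels, were higher in 4 of 4, by 2.58-fold to 4.46-fold. In RPFs only Fgf12 at 17.0 and Fgf11 were past 2-fold. Fgf11 had 398 adult RPFs and none listed in the embryonic library, where other genes with many RNA-seq reads also lack an entry. In the list of the NALCN sodium leak channel, 3 of 4 genes were higher in each assay, with Unc80 going from 62 to 4818 RNA-seq reads. Of the AMPA receptor subunits, 3 of 4 were higher in RNA (Gria3 14.1-fold, Gria2 7.99-fold, Gria1 6.13-fold), as were 4 of 6 other AMPA receptor auxiliary proteins, and 3 of 7 active zone proteins that tether calcium channels (Rimbp2 21.1-fold, Rims1 6.18-fold, Bsn 4.47-fold). In RPFs 3 of 4 AMPA receptor subunits and 3 of 7 active zone proteins were higher. Of the 6 other AMPA receptor auxiliary proteins, 3 were higher in RPFs and 2 lower. Of the RGK GTPases, which inhibit calcium channels, Rem2 was 2.41-fold higher and Gem at 0.497.

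In adult cortex against the DIV14 control, the partner lists gave fewer calls in RPFs than in RNA, as the channel pores did. In RNA, 2 of 5 axon initial segment genes were higher (Nfasc at 6.53, Ank3 at 6.11) and 5 of 7 active zone tethers (Bsn at 12.6), against 0 of 5 and 1 of 7 in RPFs, where 1 tether was also lower. Over all genes 17.5% were higher in RNA and 10.7% in RPFs, and long genes were higher in this RNA pair, as given above (217 of 453). The NALCN list had 2 of 4 higher in RNA and 1 of 4 in RPFs. With glu/gly, 3 of 5 axon initial segment genes were higher in RNA (Ank3 at 3.44, Ank2 at 1.88, Sptbn4 at 1.54) and 1 of 6 active zone tethers (Bsn at 3.44), 1 of 4 genes of the NALCN list (Unc79 at 1.71) and 0 of 4 AMPA receptor subunits, beside 7.76% of all genes and 106 of 365 long genes. In RPFs, where 2.52% of all genes were higher and 7.28% lower, 1 of 5 axon initial segment genes was higher (Sptbn4 at 1.65), and 1 tether (Rims3 at 0.664) and 1 gene of the NALCN list (Fam155a at 0.552) were lower. The part of length in these counts was not tested.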

How the data were processed

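The authors aligned reads to mm10 (STAR 2.4.2 in the submitters' processing notes) and deposited, for 1 representative transcript per gene, raw read or tag counts, RPM and RPKM values per library, with coding sequence counted without its first 50 nt, and mean tail lengths. The deposited RPM values divide by a library total larger than the reads on listed genes, and levels here are counts per 1000000 reads on listed genes (CPM), per kb of the deposited length. TE was computed from RPM, with the authors' deposited log2 TE as an alternative. The 2 RPF libraries of the microRNA cultures were not used because their labels contradict each other.

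Visual cortex tags were tested with edgeR 4.0.16 and tails with limma 3.58.1 (R 4.3.3), light against dark, without a block, with DESeq2 1.42.0 as an alternative. Labels number the mice 1–4 in each group, but the mice are different animals. Intervals came from scipy 1.17.1 (Python 3.11.15). On simulated light against dark counts of 9380 genes, edgeR recovered 8% of 1.5-fold and 66% of 2-fold changes, and limma recovered 22% of 15 nt changes over 4321 genes. The simulated counts had 1 fixed dispersion for every gene, not estimated from these data. The edgeR shares therefore need not hold for the members, whose standard errors of the log2 difference ran from 0.092 (Scn2a) to 0.316 (Cacna1h). Simulated tails had 1 standard deviation for every gene and no shift shared within a mouse, so the limma share need not hold either. The name rule for members used no measured value, but it and the lists were chosen with earlier results of these data known. Named members were chosen among the 12 with the highest mean RNA level and those past 2-fold in both hippocampal assays. Genes singled out beyond that, and the sodium channel shares, were chosen after their values were seen. Counts cover all 40 members, of which 2 are not reported here by name.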

Additional observations from a re-analysis of the deposited data

Results flagged for a closer look

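In 3 groups of 4 visual cortex mice, 1 mouse lay far from the others by Dixon's criterion, of 76 groups examined, and chance marks about 1 in 20. Cacna2d2, an alpha2delta subunit, was at 45.2 CPM in light mouse 4, against 26.8–29.2 in the other light mice. Cacnb4 was at 186.0 in dark mouse 1, against 235–242.7 in the other dark mice. Scn8a was at 172.7 in light mouse 1, against 214–219 in the other light mice.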

How the results depend on the processing

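Limits were the single library per group outside visual cortex, low read numbers for long genes in cultures, and different RNA selection between hippocampi and the other samples. In adult against embryonic hippocampus (16 higher, 3 lower in RNA), a 4-fold call left 1 lower, and PAL-seq tags, with 3 members, gave 2 and 0. These tags are no separate support, since the minimum is summed over the pair and can be met by adult tags alone. In RPFs (20 and 2), a 1.5-fold call gave 4 lower. In cortex against culture (14 and 0), RPFs gave 6 higher and 1 lower, TAIL-seq tags 6 higher, and the GFP culture 2 lower. Over the 4 stimuli (10 and 3 calls in RNA), a minimum of 20 reads gave 16 and 5, a minimum of 200 gave 2 and 0, TAIL-seq tags gave 0 lower, and RPFs gave 4 and 14. For both microRNAs (4 and 3), a minimum of 20 gave 6 lower, a minimum of 200 gave 2 higher, and TAIL-seq tags 1 higher.

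At an RNA cutoff of 30 RPM, which leaves fewer genes, the pore-forming TE median over 7 cultures turned from 0.51 to −0.22, with −0.63 in the DIV14 control and −0.65 in the GFP culture. The auxiliary median over 3 tissues (0.29) was 0.026 at 3 RPM and −0.061 at 30 RPM, and over 7 cultures (0.60) it was 0.15 at 30 RPM. For single libraries, auxiliary medians turned to −0.51 (3 RPM) and −0.38 (30 RPM) in embryonic hippocampus, −0.061 in adult cortex, and 0.044 and 0.035 in the KCl cultures of 10 and 30 min, both at 30 RPM. The tail excess over 9 cultures (20.03 nt) was 15.02 nt with 20 tags.

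In visual cortex, leaving out each mouse gave 0 to 0 member calls for levels and for tails. Mice of the same number did not deviate together (correlations −0.20 to 0.03 for levels, −0.11 to 0.04 for tails), and with a replicate block 0 members were called in either test. The alternative of members listed in both hippocampal RPF libraries was added after seeing the data.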
